A study of Mus musculus with 25 samples.

Results

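The genes described here are 10 genes of antigen presentation on major histocompatibility complex (MHC) class I molecules, H2-K1, H2-D1, B2m, Tap1, Tap2, Tapbp, Psmb8, Psmb9, Nlrc5 and Erap1. They were taken by symbol from the table of raw read counts, and all 10 were found among its 24984 genes. No measured value entered this rule, but the list was chosen with earlier results of these data known. RNA sequencing covered 25 libraries in 7 groups. BMEL cells are a line of bipotential mouse embryonic liver cells isolated from a mouse of mixed C57BL/6 and C3H background, and the parental cells are a single clone. BMEL WT cells carried an empty vector. RasLOW and RasHIGH cells carried a lentiviral H-Ras G12V transgene with a Venus or mCherry reporter and were separated by sorting on fluorescence, so that both populations remained mixed and overlapped in oncogene level. Each of these 3 groups held 3 cultures. The other 16 libraries came from 4 athymic nude mice bearing BMEL tumours at a liver and a peritoneal site, and each mouse gave tumour cells (sorted as positive for the fluorescent reporter) and stromal cells (sorted as negative) from both sites. The labels do not say which Ras population formed these tumours, and the age of the mice is not given in the sources used here. Athymic nude mice lack a thymus and thymus-derived T cells but keep natural killer (NK) cells.

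MHC class I molecules show peptides from inside a cell to T cells. Each consists of a heavy chain, encoded in the mouse by H2-K1, H2-D1 and related genes, bound to the light chain beta-2 microglobulin (B2m). Peptides are cut by the proteasome, in which Psmb8 and Psmb9 are subunits of the interferon-induced immunoproteasome, carried into the endoplasmic reticulum by the transporter of Tap1 and Tap2, trimmed there by the aminopeptidase Erap1 and loaded with the help of tapasin (Tapbp). Nlrc5 is a trans-activator of class I genes. NK cells are held back by class I molecules on their targets and are activated by stress ligands, so the levels of these genes bear on how visible a cell is to either kind of lymphocyte. RNA levels do not measure the molecules at the cell surface, which were not analysed here.

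Total counts ran from 20818989 to 51241336 per library, and 3 counts corresponded to between 0.0585 and 0.144 CPM (counts relative to library size, scaled by TMM over the 25 libraries). These floors cover counting error only. The labelled cell types were checked against marker genes. The summed CPM of 8 hepatic progenitor and epithelial markers lay between 7528 and 11630 in cultures and sorted tumour cells and between 708.8 and 1666 in stroma. The summed CPM of 12 leukocyte markers lay between 19.82 and 57.3 in the cultures and between 6478 and 11000 in the stroma. In the tumour cells it was 69.78 to 89.92 in the liver and 67.44 to 292.4 in the peritoneum, where the tumour cells of mouse 1 stood apart at the upper end. Values of the 10 genes that this library moved most are given with and without it. In bulk RNA, fewer cells of a type and less RNA per cell cannot be told apart. The heavy chain genes are close copies of each other, 5 of them (H2-L, H2-Q7, H2-Q8, H2-Q9 and H2-T9) are listed at 0 in all 25 libraries, and how reads that match several copies were counted is not given in the sources used here, so the levels of H2-K1 and H2-D1 are uncertain to that extent. Whether alleles of the C3H background or of the host affected alignment was not tested.

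On mouse build NCBIM37 (mm9), 7 of the 10 genes lie on chromosome 17 within 1351601 bases, in the MHC region. H2-K1 is at chr17:34132962-34137278 on the minus strand, H2-D1 at chr17:35399675-35404444, Tapbp at chr17:34052844-34066235, Tap1 at chr17:34324498-34334170, Psmb8 at chr17:34334666-34338399 and Tap2 at chr17:34340472-34353266, all 5 on the plus strand. Psmb9 is at chr17:34318932-34324709 on the minus strand, head to head with Tap1, and the RefSeq starts of the pair lie 226 bases apart. B2m is at chr2:121973422-121978819, Erap1 at chr13:74777320-74829983 and Nlrc5 at chr8:96996663-97051172, all on the plus strand, and the Nlrc5 entry of this annotation (GENCODE vM1) is typed as a lincRNA. The strand setting of the counting is not given in the sources used here, so reads at the shared start of Tap1 and Psmb9 cannot be told apart.

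Promoters are shown for the heavy chain pair, which was higher in RasHIGH cultures, for B2m, and for Tap1, which was lower, so that the start regions of genes that went different ways can be read side by side. The sequences are from RefSeq (table build GRCm38.p6), a promoter window was found for 8 of the 10 genes and not for Tap2 and Nlrc5, and each window matched mm9 exactly 1 time, from which the positions are given. Capitals mark matches to motifs: an interferon-stimulated response element core (ISRE core, GAAANNGAAA), a gamma-activated site (GAS, TTCNNNGAA), a kB motif (GGGNNTTCC) and CCAAT, all searched on both strands. The first 3 stretches run from 200 bases before the start to the base before it, and that of Tap1 from 250 bases before it. They lie at chr17:34137279-34137478 (minus strand, H2-K1), chr17:35399839-35400038 (plus, H2-D1), chr2:121973223-121973422 (plus, B2m) and chr17:34324251-34324500 (plus, Tap1).
H2-K1: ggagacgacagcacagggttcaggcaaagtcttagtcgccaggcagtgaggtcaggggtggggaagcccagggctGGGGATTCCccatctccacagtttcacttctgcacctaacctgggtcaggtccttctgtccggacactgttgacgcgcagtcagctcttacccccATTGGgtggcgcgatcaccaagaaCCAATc
H2-D1: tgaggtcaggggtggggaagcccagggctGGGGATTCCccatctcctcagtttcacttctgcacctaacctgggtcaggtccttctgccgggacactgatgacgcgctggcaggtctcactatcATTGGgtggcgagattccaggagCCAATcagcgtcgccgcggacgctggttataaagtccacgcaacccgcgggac
B2m: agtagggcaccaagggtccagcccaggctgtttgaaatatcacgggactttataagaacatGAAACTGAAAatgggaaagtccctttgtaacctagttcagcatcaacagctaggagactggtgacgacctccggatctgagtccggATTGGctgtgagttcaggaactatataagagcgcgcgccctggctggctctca
Tap1: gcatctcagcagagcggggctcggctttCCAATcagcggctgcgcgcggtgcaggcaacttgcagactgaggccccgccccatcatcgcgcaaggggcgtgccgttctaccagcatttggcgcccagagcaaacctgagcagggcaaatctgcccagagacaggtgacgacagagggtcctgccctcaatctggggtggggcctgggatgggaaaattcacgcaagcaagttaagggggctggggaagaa
Over the 154 bases that the H2-K1 and H2-D1 stretches share when aligned without gaps, 130 were identical (84.4%), and both held a kB match, from -125 to -117 and from -171 to -163 relative to the start. An ISRE core match lay from -139 to -130 in B2m and from -4 to 5 in Erap1, and a GAS match from -97 to -89 in Psmb8. CCAAT was present in 6 of the 8 genes with a window. Of 32851 mouse promoter windows of the same length, 3.44% held the ISRE core, 8.3% the GAS, 5.82% the kB motif and 37.4% CCAAT. A match is a description of the letters and not evidence of binding.

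Compared per length (RPKM, CPM divided by exon length in kilobases), B2m had the highest level of the 10 genes in all 7 groups, with 220 ± 18.5 RPKM in BMEL WT (SD, n = 3) and 1550 ± 140 in liver stroma (SD, n = 4). In BMEL WT it was followed by Tapbp (6.17 ± 1.52 RPKM), H2-K1 (3.95 ± 0.412), Erap1 (3.92 ± 0.766) and Tap1 (3.65 ± 0.615). Tapbp, at 4.54 RPKM or more, lay above every value of the other 3, which differed from each other by less than their spread. Psmb9 (0.0716 ± 0.0273 RPKM) and Psmb8 (0.0565 ± 0.0275) were the lowest in these cells and also overlapped. In liver stroma H2-K1 (150 ± 14.8 RPKM) ranked next to B2m, and Psmb8 (42.4 ± 2.4) ranked above Tap1 (13.5 ± 0.863). In the cultured progenitors the light chain therefore stood far above the others of these 10 genes on this scale, and Psmb8 and Psmb9 were close to the floor. Genes of the pathway outside the 10 were not ranked per length.

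**Figure D1:**
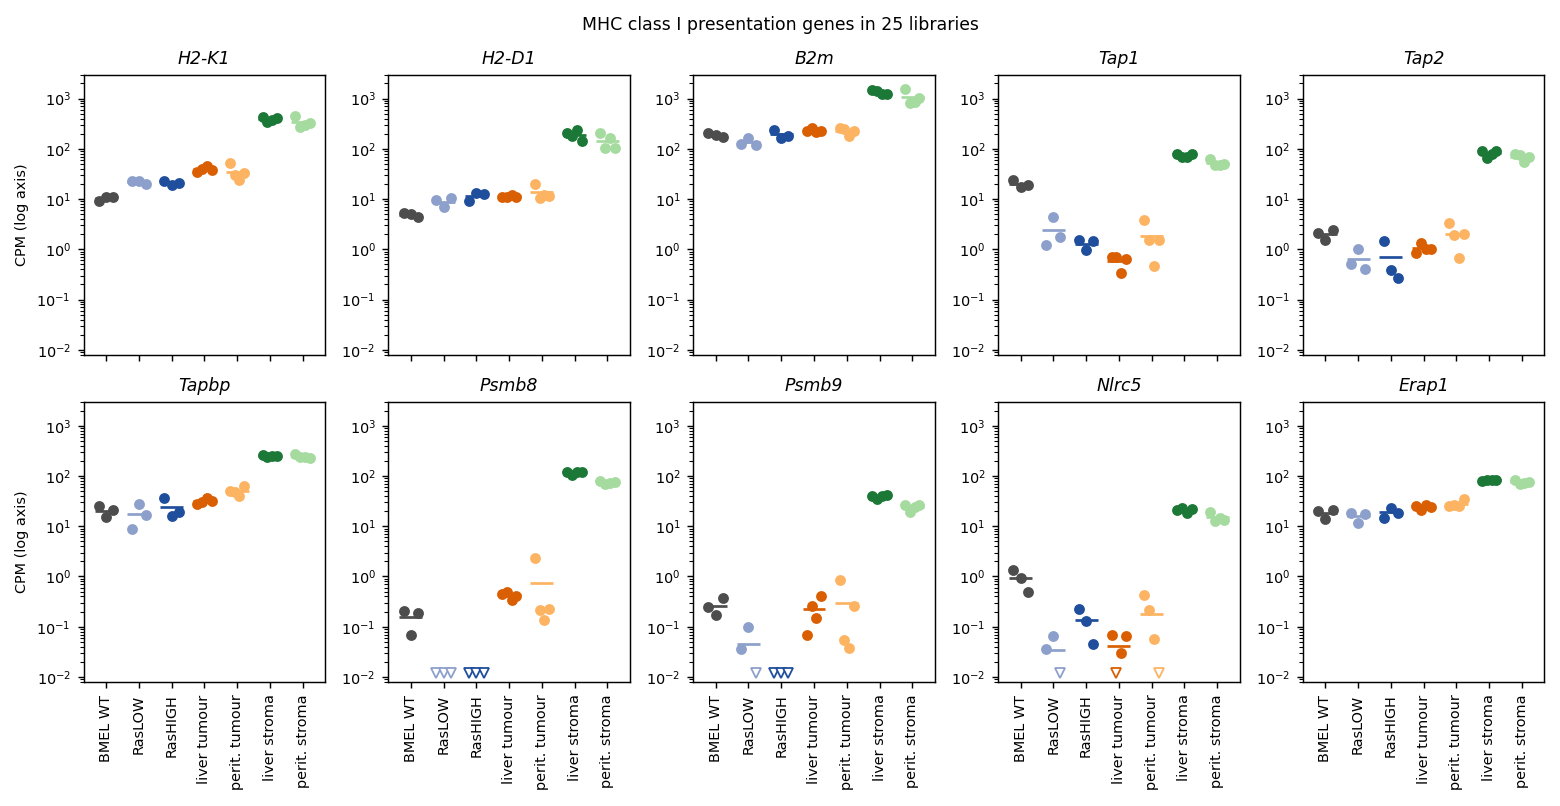
Level of each gene in every library, in CPM on a log axis, by group, with points for libraries, lines for group means and open triangles at the bottom for libraries at 0. All 10 genes were higher in both stromal groups than in cultures or tumour cells, with Erap1 at 69.2 to 84.4 CPM in stroma against at most 34.2 CPM elsewhere. Tap1 was lower in both Ras groups (0.947 to 4.33 CPM) than in BMEL WT (17.1 to 23.7 CPM), and was at 47.2 to 78.4 CPM in stroma.

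The first comparison asked how the H-Ras G12V transgene, at either level, was accompanied by changes of these genes in culture. In Ras cells the heavy chain H2-K1 was about 2-fold higher than in BMEL WT, whereas the transporter subunit Tap1 and the trans-activator Nlrc5 were several-fold lower, and the light chain B2m was not called. In RasLOW against BMEL WT, edgeR's quasi-likelihood test called 1 of the 8 genes tested higher and 2 lower at an adjusted p under 0.05, against 1.92% and 4.05% of the 12307 genes tested. In RasHIGH against BMEL WT, 2 of 8 were called higher and 2 lower, against 10.9% and 11.7% of 12331 genes. Nlrc5, 1 of the 2 lower calls in each, passed the filter on low counts through BMEL WT alone, so its call is no support, and of the members that did not pass through a single group, 1 of 7 was higher and 1 lower in RasLOW and 2 of 6 higher and 1 lower in RasHIGH. The median log2 fold change of the tested members was -0.39 in RasLOW and -0.004 in RasHIGH, beside medians over all genes of 0.01 and -0.02. These medians include Nlrc5, and in RasHIGH also Tap2, although both passed the filter there through BMEL WT alone. Psmb8 and Psmb9 had too few counts to be tested. The comparisons share the BMEL WT libraries and are not independent.

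Among the heavy chains, H2-K1 was at 9.08, 11.1 and 10.8 CPM in the BMEL WT cultures, at 22.7, 22.8 and 19.7 CPM in RasLOW and at 23.1, 19.1 and 20.8 CPM in RasHIGH. Every Ras culture was above every BMEL WT culture. H2-K1 rose 2.06-fold in RasLOW (log2 fold change 1.04, SE 0.171, edgeR quasi-likelihood test, adjusted p = 0.0192) and 1.99-fold in RasHIGH (log2 fold change 0.99, SE 0.161, adjusted p = 0.00617). H2-D1 was at 5.2, 5.13 and 4.4 CPM in BMEL WT, at 9.38, 6.82 and 10.2 CPM in RasLOW and at 9.17, 13.2 and 12.4 CPM in RasHIGH. These groups did not overlap either. H2-D1 rose 2.31-fold in RasHIGH (edgeR, log2 fold change 1.21, SE 0.218, adjusted p = 0.00908), and in RasLOW its log2 fold change of 0.81 (SE 0.241) was not called (adjusted p = 0.102). The light chain B2m was at 203.8, 190.7 and 172.2 CPM in BMEL WT, at 122.4, 162.8 and 117.2 CPM in RasLOW and at 234.6, 162.3 and 181.7 CPM in RasHIGH. Its RasLOW cultures all lay below BMEL WT without passing the test (log2 fold change -0.52, SE 0.176, edgeR adjusted p = 0.137), and its RasHIGH cultures overlapped BMEL WT (log2 fold change -0.01, SE 0.157, adjusted p = 0.973).

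Of the peptide transporter, Tap1 was at 23.7, 17.1 and 19.2 CPM in BMEL WT, at 1.22, 4.33 and 1.74 CPM in RasLOW and at 1.52, 0.947 and 1.44 CPM in RasHIGH. RasLOW culture 2 was the highest Ras culture and was still far below the lowest BMEL WT culture. Tap1 fell 8.28-fold in RasLOW (edgeR, log2 fold change -3.05, SE 0.483, adjusted p = 0.0181; 13.9-fold, -3.80, adjusted p = 0.00134 without RasLOW culture 2) and 15.7-fold in RasHIGH (log2 fold change -3.97, SE 0.26, adjusted p = 0.000266). Tap2, the partner subunit, was at 2.1, 1.51 and 2.37 CPM in BMEL WT, at 0.503, 1.02 and 0.405 CPM in RasLOW and at 1.48, 0.388 and 0.271 CPM in RasHIGH. The groups did not overlap, but RasHIGH culture 1 came close to BMEL WT, and neither log2 fold change was called by edgeR (-1.64, SE 0.47, adjusted p = 0.0906 in RasLOW, and -1.51, SE 0.61, adjusted p = 0.126 in RasHIGH). Without RasHIGH culture 1 the Tap2 log2 fold change in RasHIGH was -2.60. Tap2 passed the filter on low counts in RasHIGH against BMEL WT through BMEL WT alone.

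The immunoproteasome subunits Psmb8 and Psmb9 were near the floor in all cultures. Psmb10, a further catalytic subunit outside the 10 genes, was not. It was at 11.6 to 12.1 CPM in BMEL WT, 9.04 to 13.1 in RasLOW and 8.26 to 13.2 in RasHIGH. Neither Ras group was called for it (edgeR adjusted p = 0.624 and 0.705). Psmb8 had 6, 2 and 5 counts in BMEL WT and 0 counts in all 6 Ras cultures. With the floor of 3 counts set over each group, Psmb8 was at least 4.38-fold higher in BMEL WT than in RasLOW and at least 3.8-fold higher than in RasHIGH. With the counting error of the 13 BMEL WT counts included, the exact binomial lower limits were 3.08-fold and 2.68-fold. Psmb9 had 7, 5 and 10 counts in BMEL WT, 1, 3 and 0 in RasLOW and 0 in all RasHIGH cultures. It was 5.56-fold higher in BMEL WT than in RasLOW over the summed 22 against 4 counts (exact binomial 95% interval 1.89 to 22.2, counting error only) and at least 6.44-fold higher than in RasHIGH (exact lower limit 4.81). These ratios cover counting error and not the spread between cultures.

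Nlrc5, the trans-activator, had 38, 27 and 13 counts in BMEL WT, 1, 2 and 0 in RasLOW and 6, 3 and 1 in RasHIGH. In CPM this was 0.481 to 1.33 in BMEL WT, 0 to 0.0656 in RasLOW and 0.0451 to 0.227 in RasHIGH, with no overlap between BMEL WT and either Ras group. Over summed counts it was 26.3-fold lower in RasLOW (78 against 3, counting interval 8.66 to 130) and 6.85-fold lower in RasHIGH (78 against 10, counting interval 3.53 to 14.8). Since no Ras culture reached the filter on low counts, no p is given for Nlrc5. Tapbp, which encodes the loading factor tapasin, spread widely within groups. It was at 24.9, 15 and 21.2 CPM in BMEL WT, at 8.66, 27.1 and 17.1 CPM in RasLOW and at 35.8, 16.3 and 18.8 CPM in RasHIGH, and the groups overlapped (edgeR adjusted p = 0.814 and 0.761). Erap1, the trimming enzyme, was at 14.2 to 20.6 CPM in BMEL WT, 11.7 to 18.2 in RasLOW and 14.9 to 23.2 in RasHIGH, also overlapping (adjusted p = 0.594 and 0.996).

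**Figure D2:**
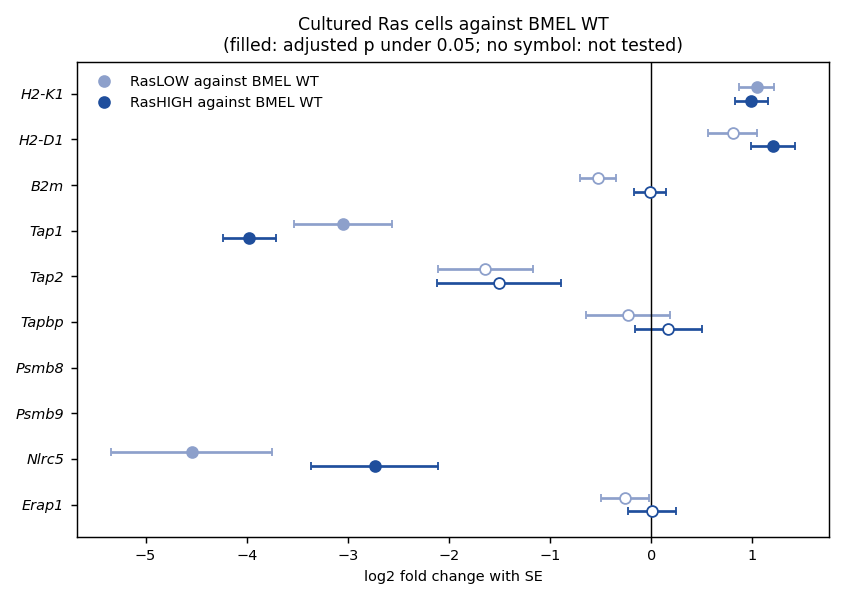
Log2 fold change with SE of each tested gene in RasLOW and RasHIGH cultures against BMEL WT, filled where the adjusted p was under 0.05. H2-K1 lay near 1 and Tap1 at -3.05 and -3.97, and Psmb8 and Psmb9 have no symbol because they were not tested. The filled symbols of Nlrc5 are no support, since it entered the test through BMEL WT alone.

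The calls in RasLOW rested on every BMEL WT library. Without any BMEL WT library, or without RasLOW culture 3, no member was called in RasLOW, with H2-K1 at log2 fold changes of 0.96 to 1.11 and Tap1 at -3.16 to -2.85. In RasHIGH, H2-K1, H2-D1 and Tap1 were called without each library in turn. BMEL WT cultures 1 and 2 were sequenced in lane 3 and the other 7 cultures in lane 4. Within lane 4, where BMEL WT 3 stood alone, the log2 fold changes in RasLOW were 0.97 for H2-K1, -2.999 for Tap1 and -3.64 for Nlrc5, and those in RasHIGH were 0.92 for H2-K1, 1.36 for H2-D1, -3.92 for Tap1 and -1.82 for Nlrc5. There, Tap1 in RasHIGH alone was called (edgeR adjusted p = 0.0169, assuming that the lone BMEL WT library varied like the others), and over all its alternatives its adjusted p lay between 2.7e-39 and 0.0169.

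RasHIGH was compared directly with RasLOW to ask about the oncogene level. None of the 7 genes tested was called by edgeR, against 0.0585% higher and 0.0167% lower calls among 11962 genes. DESeq2 called 0 of them as well, and 1, B2m, had an unadjusted p under 0.05 in edgeR. B2m had the log2 fold change 0.52 (SE 0.207, edgeR adjusted p = 0.472), Tap1 had -0.91 (SE 0.547, adjusted p = 0.684), H2-D1 had 0.41 (SE 0.26, adjusted p = 0.715) and H2-K1 had -0.05 (SE 0.175, adjusted p = 0.957). The groups overlapped for all 10 genes. With 3 cultures a group this does not show that the populations have the same levels.

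The tumour cells were next set beside the stroma of the same tumours. All 10 genes were lower in tumour cells than in stroma at both sites, in every mouse, and by edgeR all 10 were called lower in the liver, where 39.4% of 14620 genes were called lower and 38.4% higher, and all 10 in the peritoneum, where 37.1% of 14584 genes were called lower and 39.5% higher. The median log2 fold change of the members was -5.21 in the liver and -4.07 in the peritoneum, beside 0.004 and 0.07 over all genes. Psmb9 and Nlrc5, and in the peritoneum also Psmb8, passed the filter on low counts through the stroma alone, so their calls are no support. The medians include them. The other 8 genes in the liver (log2 fold changes -8.11 to -1.785) and 7 in the peritoneum (-5.07 to -1.36) were all called lower. The stroma held leukocytes, as the marker sums above show, and the part that cell composition has in these differences was not tested. The order of the genes was alike at both sites: Erap1 and B2m differed least and Nlrc5, Psmb8, Psmb9 and the transporter most.

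Per mouse, H2-K1 in liver tumour cells was at 35, 39.9, 45.1 and 38.6 CPM and in liver stroma at 438.2, 346.4, 380.5 and 401.9 CPM, so that tumour cells had 7.99% to 11.9% of the stromal level of the same mouse. In the peritoneum H2-K1 was at 52.5, 30.5, 24.3 and 33.6 CPM in tumour cells and at 453, 276.7, 300.3 and 319.7 CPM in stroma, or 8.1% to 11.6%. H2-K1 was 10.1-fold lower in tumour cells than in stroma in the liver (edgeR, log2 fold change -3.33, SE 0.112, adjusted p = 1.39e-10) and 9.16-fold lower in the peritoneum (log2 fold change -3.20, SE 0.271, adjusted p = 1.24e-05). In the liver H2-D1 was at 10.8 to 12.1 CPM in tumour cells and 142.2 to 232.9 CPM in stroma (5.19% to 7.61%), and at 10.5 to 19.8 CPM against 102.7 to 207.5 CPM in the peritoneum (7.46% to 11.4%). B2m kept more of the stromal level than either heavy chain. It was at 226.3, 258.2, 212.9 and 226 CPM in liver tumour cells against 1478, 1393, 1220 and 1256 CPM in liver stroma (15.3% to 18.5%), and at 258.3, 251.2, 180.6 and 226.7 CPM in peritoneal tumour cells against 1568, 814.1, 833.9 and 1013 CPM in peritoneal stroma (16.5% to 30.9%).

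The transporter showed a wider gap. In the liver, Tap1 was at 0.707, 0.707, 0.333 and 0.64 CPM in tumour cells and at 78.4, 69.9, 69.7 and 77.5 CPM in stroma, or 0.478% to 1.01% of the stromal level. It was 124-fold lower in liver tumour cells (edgeR, log2 fold change -6.96, SE 0.171, adjusted p = 1.1e-11). In the peritoneum Tap1 was at 3.9, 1.55, 0.461 and 1.51 CPM in tumour cells and at 63.9, 47.7, 47.2 and 50.6 CPM in stroma, or 0.977% to 6.1%, and up to 3.25% without mouse 1. It was 27.5-fold lower there (edgeR, log2 fold change -4.78, SE 0.541, adjusted p = 5.81e-05), and 47.5-fold lower without tumour mouse 1 (log2 fold change -5.57, adjusted p = 1.52e-06). Tap2 was at 0.844 to 1.33 CPM in liver and 0.672 to 3.4 CPM in peritoneal tumour cells, against 66.4 to 92.3 and 55.5 to 78.2 CPM in the stroma. Tapbp was at 10.5% to 14.3% of the stromal level in the liver and 16.9% to 28.1% in the peritoneum, and Erap1 at 25.8% to 32% and 30.9% to 46.1%. These genes of loading and trimming thus stood closer to their stromal level than the transporter did.

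The immunoproteasome subunits Psmb8 and Psmb9, and Nlrc5, were low outside the stromal libraries. Psmb8 was at 118, 106.6, 121.7 and 118 CPM in liver stroma and at 0.456, 0.48, 0.333 and 0.416 CPM in liver tumour cells (20, 17, 11 and 13 counts), 276-fold lower (edgeR, log2 fold change -8.11, SE 0.125, adjusted p = 1.2e-12). In the peritoneum Psmb8 was at 80.9, 69, 71.1 and 77 CPM in stroma and at 2.34, 0.217, 0.134 and 0.222 CPM in tumour cells (75, 8, 7 and 6 counts). The tumour cells of peritoneal mouse 1 were more than 10 times above the other mice, at 2.89% of the stromal level against 0.189% to 0.315%. The peritoneal log2 fold changes of Psmb8, Psmb9 and Nlrc5 against stroma were -6.68, -6.38 and -6.35 with this library and -8.66, -7.92 and -7.28 without it. Psmb9 was at 0.0684 to 0.416 CPM in liver and 0.0384 to 0.843 CPM in peritoneal tumour cells, again with mouse 1 highest in the peritoneum. Nlrc5 had 3, 0, 1 and 2 counts in liver tumour cells and 14, 8, 3 and 0 in peritoneal tumour cells, against 18.5 to 22.6 and 12.9 to 19.6 CPM in the stroma. Over the summed counts of the liver, 6 against 2538, Nlrc5 was 484-fold lower in tumour cells (counting interval 222 to 1320).

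The leukocyte markers give the scale on which these small values can be read. The median of the 12 markers in tumour cells, as a percentage of the stromal level of the same mouse, was 0.225%, 0.35%, 0.332% and 0.46% in the liver and 2.91%, 0.316%, 0.448% and 0.198% in the peritoneum, with mouse 1 first. Ptprc, the pan-leukocyte antigen CD45, was at 0.184% to 0.26% in the liver, at 2.04% in peritoneal mouse 1 and at 0.179% to 0.233% in the other peritoneal tumours. The percentages of Psmb8, Tap1 and Tap2 lay within the range of the markers in every mouse at both sites. Within that range, Tap1 and Tap2 were above the marker median in every mouse, and Psmb8 was above it in some mice and below it in others. Those of H2-K1, H2-D1, B2m, Tapbp and Erap1 lay above the highest marker in every mouse at both sites. Cd68 and Cd14 were the markers with the highest percentages (2.53% to 6.17%). The markers Adgre1, Tyrobp and Cd52 were at 0 in all 9 cultures. The part of leukocyte RNA in the tumour cell levels was not tested.

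**Figure D3:**
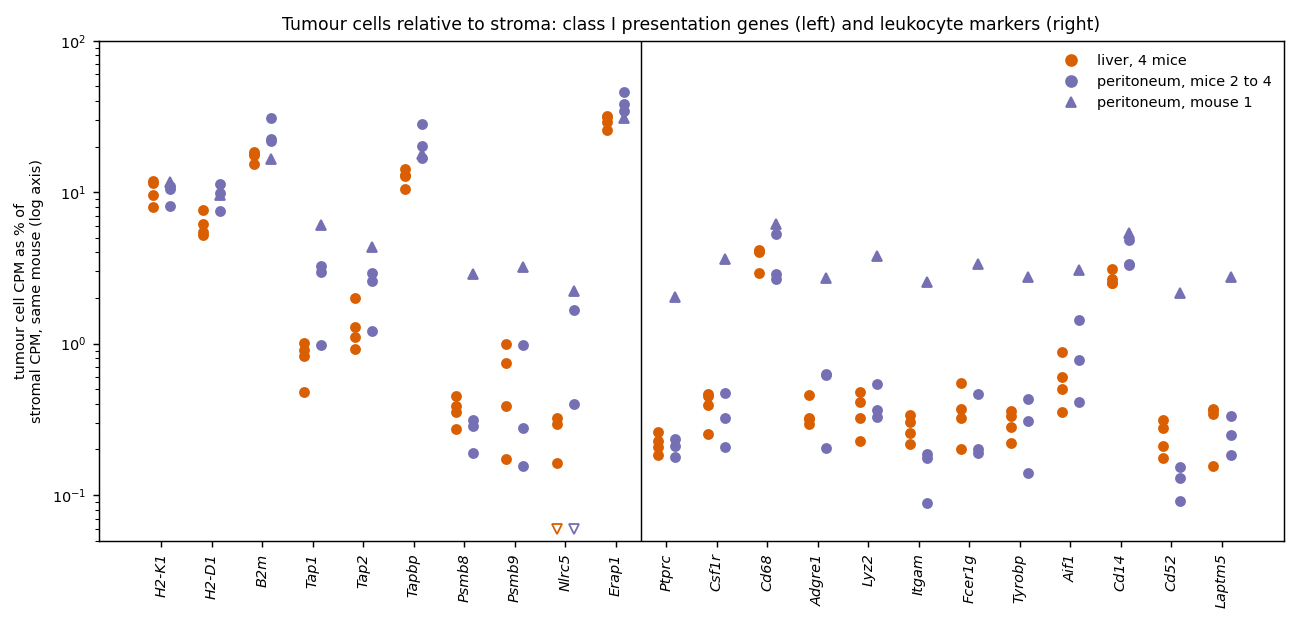
Tumour cell CPM as a percentage of stromal CPM of the same mouse, on a log axis, for the 10 genes (left) and 12 leukocyte markers (right), with triangles for peritoneal mouse 1 and open symbols at the bottom for libraries at 0. Erap1 reached 25.8% to 46.1%, whereas Psmb8 lay at 0.189% to 0.451% outside peritoneal mouse 1, beside most of the markers.

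Liver tumour cells were then compared with peritoneal tumour cells, and likewise the stroma of both sites. In tumour cells edgeR called none of the 8 genes tested higher in the liver and 1, Tapbp, lower, against 1.33% higher and 1.87% lower calls among 13074 genes. Tapbp was at 27.7, 30.9, 36.3 and 31.7 CPM in the liver and at 50.2, 47.6, 39.8 and 63.1 CPM in the peritoneum. It was lower in the liver in all 4 mice and the groups did not overlap (1.59-fold, log2 fold change -0.67, SE 0.137, edgeR adjusted p = 0.0313). The call ended with the mouse as a block (log2 fold change -0.66, adjusted p = 0.0861), with sequencing lane as a term (-0.66, adjusted p = 0.0625) and without liver tumour 1, 2 or 4 (-0.69 to -0.61), and its adjusted p ran from 0.000307 to 0.183 over all alternatives. Other cell types moved with this comparison. Of 6 fibroblast markers 4 were called lower in liver tumour cells (median log2 fold change -3.55), with summed levels of 40.03 to 60.48 CPM in the liver and 209.4 to 1446 CPM in the peritoneum, and 3 of 5 hepatocyte markers were called higher (median 6.09). Their part in the Tapbp difference was not tested. Tap1 was higher in the peritoneum in all 4 mice but overlapped and was not called (log2 fold change -1.64, SE 0.57, adjusted p = 0.144), and without peritoneal mouse 1 its log2 fold change was -0.94 (adjusted p = 0.233). Psmb8 had a log2 fold change of -0.79 (adjusted p = 0.643), which was 1.17 without peritoneal mouse 1 (adjusted p = 0.108). Psmb8 passed the filter on low counts here through the liver tumour cells alone, so its test is no support in either direction. H2-K1 (0.16, SE 0.205), H2-D1 (-0.28, SE 0.189) and B2m (0.002, SE 0.118) overlapped between the sites and were not called.

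In the stroma 4 of the 10 genes were called higher in the liver and 0 lower, against 14.9% and 18.5% of 14755 genes. With all 25 libraries in a single fit none of the 4 was called (edgeR adjusted p = 0.322 for Psmb8, 0.267 for Psmb9, 0.365 for Tap1 and 0.42 for Nlrc5), with log2 fold changes of 0.47 to 0.68. Psmb8 was 1.51-fold higher in liver than in peritoneal stroma, with no overlap (edgeR, log2 fold change 0.59, SE 0.078, adjusted p = 0.000371). Psmb9 was at 39.5, 34.3, 39.4 and 42.1 CPM in the liver and at 26.3, 19.6, 24.6 and 26.4 CPM in the peritoneum, 1.55-fold higher (log2 fold change 0.63, SE 0.11, edgeR adjusted p = 0.00195). Tap1 was 1.37-fold higher (log2 fold change 0.45, SE 0.107, adjusted p = 0.00998). Nlrc5 was at 21.1, 22.6, 18.5 and 21.7 CPM against 19.6, 12.9, 14.45 and 13.5 CPM, and was called with overlapping groups (log2 fold change 0.43, SE 0.142, edgeR adjusted p = 0.044). With sequencing lane as a term Nlrc5 was no longer called (log2 fold change 0.35, adjusted p = 0.0501, range over its alternatives 0.00457 to 0.42). The peritoneal stroma of mouse 1 had the highest H2-K1, H2-D1 and B2m of its group, and without it 6 members were called higher in the liver. Of the 12 leukocyte markers 8 were called higher in the liver stroma and 0 lower (median log2 fold change 0.46), and all 6 fibroblast markers were lower there (median -3.45). The part of cell composition in the stromal differences was not tested.

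Whether the site difference itself differed between tumour cells and stroma was tested with an interaction term over the 16 libraries. The term was called for 2 of the 10 genes, both negative, against 7.5% negative and 6.79% positive calls among 15331 genes. For Tap1 the liver to peritoneum difference was lower in tumour cells than in stroma by 2.11 on the log2 scale (interaction -2.11, SE 0.568, edgeR adjusted p = 0.022). For Tapbp it was -0.75 (SE 0.169, adjusted p = 0.0076), and it was not called with all 25 libraries in a single fit (-0.71, edgeR adjusted p = 0.257). Without peritoneal tumour mouse 1 the Tap1 term was -1.32 (adjusted p = 0.0375) and the Tapbp term -0.65 (adjusted p = 0.0201), and with the mouse as a block both remained called. The Tap1 term was not called without liver tumour 3 or without peritoneal stroma 2 or 3 (-2.00 to -1.85), and over its alternatives its adjusted p ran from 0.00106 to 0.0653. The median interaction of the members was -0.91, beside -0.12 over all genes. It includes Psmb8, Psmb9 and Nlrc5, which had few counts in tumour cells.

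**Figure D4:**
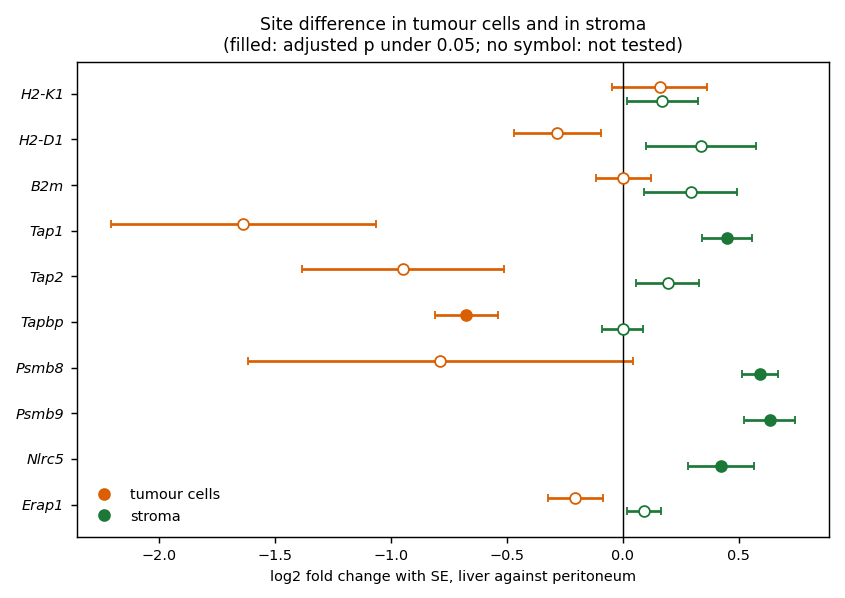
Log2 fold change with SE of liver against peritoneum for tumour cells and for stroma, filled where the adjusted p was under 0.05. Tap1 lay at -1.64 in tumour cells and at 0.45 in stroma, and Tapbp at -0.67 in tumour cells and 0.00 in stroma.

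Sorted tumour cells were also set beside the RasHIGH cultures. All RasHIGH libraries were sequenced in lane 4 and no tumour library was, growth in the animal came with dissociation and sorting, and these cannot be told apart. Both comparisons share the RasHIGH libraries. In liver tumour cells 2 of 8 genes were called higher and 1 lower, against 23% and 22.1% of 12971 genes. Psmb8, 1 of the 2 higher calls, passed the filter on low counts through the tumour cells alone, so its call is no support, and of the 6 members that did not pass through a single group 1 was higher and 1 lower. H2-K1 rose 1.89-fold (edgeR, log2 fold change 0.92, SE 0.134, adjusted p = 0.000796), with liver tumour cells at 35 to 45.1 CPM and RasHIGH cultures at 19.1 to 23.1 CPM. Psmb8, at 0 in every RasHIGH culture, was at least 9.55-fold higher over the group floor (exact lower limit 7.53), and the leukocyte marker sum was higher in these tumour cells too, as given above. Tap1 fell 2.16-fold below its already low RasHIGH level (log2 fold change -1.11, SE 0.348, adjusted p = 0.029), and was not called without RasHIGH 1 or 3 or without liver tumour 2, 3 or 4 (-1.19 to -0.89) or with all 25 libraries in a single fit (-1.12, edgeR adjusted p = 0.0866). H2-D1 (log2 fold change -0.04, SE 0.167) and B2m (0.26, SE 0.145) overlapped between the groups.

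In peritoneal tumour cells 3 of 7 genes were called higher than in RasHIGH and 0 lower, against 19.3% and 18.6% of 12791 genes. H2-K1 rose 1.7-fold (edgeR, log2 fold change 0.77, SE 0.258, adjusted p = 0.0466), Tapbp 2.15-fold (1.10, SE 0.288, adjusted p = 0.019) and Erap1 1.49-fold (0.58, SE 0.189, adjusted p = 0.042). Without RasHIGH 3 none of the 3 was called, with log2 fold changes of 0.75, 0.96 and 0.56. H2-K1 was also not called without RasHIGH 2 or peritoneal tumour 2 or 4, Tapbp without RasHIGH 2, and Erap1 without RasHIGH 1 or any peritoneal tumour library. Tap1 overlapped between the groups (log2 fold change 0.53, SE 0.646), and was at -0.13 without peritoneal mouse 1. Psmb8 and Psmb9 were not tested, and over the group floor they were at least 15.2-fold and at least 6-fold higher in peritoneal tumour cells than in RasHIGH (exact lower limits 12.1 and 4.64). Of the 96 Psmb8 and 38 Psmb9 counts in these tumour cells, 75 and 27 came from mouse 1, and without it the bounds were 4.23-fold and 2.22-fold (exact lower limits 3.15 and 1.52).

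The rest of the pathway was read from lists of other heavy chains, other genes of peptide supply and loading, interferon signalling genes, interferon-inducible genes and ligands of NK receptors. In RasHIGH against BMEL WT none of the 10 other heavy chains tested and none of the 13 genes of peptide supply was called, with median log2 fold changes of 0.46 and -0.01. Of the 18 interferon signalling genes 1 was called higher and 3 lower, and of the 6 interferon-inducible genes tested 2 were lower, beside 10.9% higher and 11.7% lower over all genes in this comparison. Ifngr1, a chain of the interferon-gamma receptor, was at 132.9 ± 35.3 CPM in BMEL WT and at 53.3 ± 9.08 CPM in RasHIGH (SD, n = 3, log2 fold change -1.36, edgeR adjusted p = 0.00617). Irgm1, an interferon-inducible GTPase, fell from 166.4 ± 26 to 40.2 ± 1.1 CPM (log2 fold change -2.09, edgeR adjusted p = 0.000363). The interferon-inducible gene Ifit2 and the histone methyltransferase Ezh2 also fell (log2 fold changes -1.61 and -1.03, edgeR adjusted p = 0.0131 and 0.0232), and the interferon regulatory factor Irf2 rose (0.61, adjusted p = 0.0418). In RasLOW, Ifngr1 was the single gene of these 4 lists that was called (log2 fold change -0.97, edgeR adjusted p = 0.0414).

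Among the 8 NK receptor ligands tested in RasHIGH against BMEL WT, 1 was called higher and 2 lower, beside the same 10.9% and 11.7% over all genes. Ceacam1, an adhesion molecule that can inhibit NK cells, was at 0.214 ± 0.162 CPM in BMEL WT and 9.97 ± 4.57 CPM in RasHIGH (SD, n = 3, log2 fold change 5.47). It passed the filter on low counts through RasHIGH alone, so its call is no support. Ulbp1, a ligand of the activating receptor NKG2D, fell (log2 fold change -1.80, edgeR adjusted p = 0.0161). H60b, a further NKG2D ligand, had a log2 fold change of -4.57. It did not pass the filter on low counts between RasHIGH and RasLOW, so its calls rest on its BMEL WT level and are no support. In RasLOW H60b alone was called (log2 fold change -3.26), with the same limit. Raet1a, Raet1b and Raet1c, further NKG2D ligands, are listed at 0 in all 25 libraries. Between RasHIGH and RasLOW no gene of the 5 lists was called by edgeR.

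In tumour cells against stroma all 15 other heavy chains tested and all 16 interferon-inducible genes were lower at both sites, with medians of -4.51 and -5.78 in the liver and -3.71 and -4.60 in the peritoneum. Over all genes, 38.4% were higher and 39.4% lower in the liver, and 39.5% and 37.1% in the peritoneum. Genes near 0 in tumour cells, such as H2-M2 (0 to 0.25 CPM), passed the filter on low counts through the stroma alone, so their calls are no support. The other genes of peptide supply went both ways. Of 13, 2 were higher and 6 lower in the liver (median 0.05) and 6 higher and 4 lower in the peritoneum (median 0.02). Psmb10, the remaining catalytic immunoproteasome subunit, was lower in liver tumour cells, with 9.31 ± 1.3 CPM against 58.1 ± 5.09 CPM in the stroma (SD, n = 4, log2 fold change -2.67, edgeR adjusted p = 1.71e-09). Psmb7, a constitutive catalytic subunit, was higher in tumour cells (132.4 ± 12.3 against 75 ± 3.64 CPM, log2 fold change 0.79, edgeR adjusted p = 3.77e-06).

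Between liver and peritoneal tumour cells, 0 of 13 other heavy chains and 0 of 18 signalling genes were called, and Psme2, a proteasome activator subunit (log2 fold change -0.42, edgeR adjusted p = 0.0472), Irgm1 (-0.63, adjusted p = 0.0243) and Clec2d, a ligand of an inhibitory NK receptor (-1.02, adjusted p = 0.0243), were lower in the liver. Ceacam1 was higher in the liver, at 13.1 ± 4.17 against 3.44 ± 1.88 CPM (SD, n = 4, log2 fold change 1.94, adjusted p = 0.0451). Against RasHIGH, 8 of 12 interferon-inducible genes tested were higher and 1 lower in liver tumour cells (median 2.35), beside 23% and 22.1% of all genes. In peritoneal tumour cells 7 of 11 were higher and 1 lower (median 2.30), beside 19.3% and 18.6%. These counts and medians include genes near 0 in RasHIGH that passed the filter on low counts through the tumour cells alone. The calls of such genes are no support. Among them was Oasl2, an interferon-induced gene, at 0.176 ± 0.0876 CPM in RasHIGH and 6.36 ± 1.64 CPM in liver tumour cells (log2 fold change 5.12). In the same comparisons 11 of 12 and 9 of 11 leukocyte markers were higher (medians 5.51 and 6.03), as were all 4 endothelial markers tested at either site (medians 5.81 and 6.60), all 5 and all 6 fibroblast markers tested (5.02 and 9.39) and 5 of 5 and 1 of 2 hepatocyte markers tested (10.05 and 2.66), and their part in these differences was not tested. Cdh5, on the endothelial list, was also higher in RasHIGH cultures than in BMEL WT (log2 fold change 6.78). In tumour cells Cdh5 was at 38.2% to 182% of the stromal level in the liver and 39.6% to 213% in the peritoneum, so its level does not by itself show endothelial cells. Markers such as Adgre1, Lyz2, Tyrobp, Cd52, Pecam1, Kdr, Col1a2 and Col3a1 were at 0 in all RasHIGH cultures. The filter set the direction of their calls, and these counts and medians include them.

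The genes whose pattern was most like the mean of the 10 members were found by Pearson correlation of log2(CPM + 1), as a description without a test. Over the 25 libraries these included Tnfrsf13b (r = 0.997), Tbxas1, Zeb2os and Clec4a3 (each r = 0.996), all with mean levels of at most 1.09 CPM in cultures and tumour cells and at least 12 CPM in stroma, and the 25 points share the gap between stroma and the rest. Over the 9 cultures they were Parp14 (r = 0.972), Spg7 (0.963), Trpm2 (0.962), Rbm4b (0.96) and Adamtsl3 (0.954). Within the cultures the members did not move together. Correlated with the mean of the other 9, H2-K1 had r = -0.85 and H2-D1 r = -0.79, against 0.79 for Tap2 and Psmb8, 0.71 for Nlrc5, 0.66 for Tap1, 0.63 for Psmb9, 0.60 for B2m, 0.37 for Tapbp and -0.03 for Erap1. Over all 25 libraries the same correlation was between 0.846 and 0.996.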

How the data were processed

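RNA was sequenced from 9 cultures and from 16 sorted populations of 4 mice. The authors aligned reads to mm9 with TopHat2, per the study's methods, and deposited a table of raw read counts, not normalized, that covers 24984 genes. The submitters' processing notes name FastQC, Bowtie 0.12.2 and the builds mm8 and mm10. The counting program, its strand setting and the annotation are not given in the sources used here. Total counts lay between 20818989 and 51241336 per library, and precision at low levels is limited by counting error, with a floor of 3 counts.

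The software was edgeR 4.0.16 and limma 3.58.1 under R 4.3.3. Only the libraries of the groups compared entered a fit, as in the study's pairwise comparisons. Low genes were dropped with filterByExpr (minimum count 10), TMM gave the scaling, and the quasi-likelihood test was used with p-values adjusted over every gene tested after Benjamini and Hochberg (threshold 0.05). CPM values were scaled by TMM over all 25 libraries, and RPKM used exon lengths of GENCODE vM1 on mm9. Intervals of summed counts are exact binomial (confidence level 0.95). Likeness used log2(CPM + 1), or a pseudocount of 0.1 as an alternative. The median log2 fold change over all genes, given beside list medians, was within 0.12 of 0. The steps were tested on simulated data.

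The members, marker lists and pathway lists were chosen with earlier results of these data known. All members are named in every comparison, and from other lists at most 4 genes a comparison with the smallest adjusted p and a mean of at least 1 CPM in a group compared. Of the genes these rules and the likeness measure picked, 2 are not reported here by name. A p-value measures the spread between the libraries of this study, and nothing in the labels says how separate the cultures were. Replicate numbers of cultures did not pair libraries (correlations of deviations -0.69 to 0.356 over 9 pairs) and were not used as a block. Tumour and stromal libraries share mice per the labels (correlations -0.17 to 0.389 over 16 pairs), and values with the mouse as a block are printed where a call changed. Lanes were read from library names: BMEL WT 1 and 2 in lane 3, other cultures in lane 4, mouse 1 and the liver of mouse 2 in lane 1, the peritoneum of mouse 2 and mouse 3 in lane 2, mouse 4 in lane 3. Alternatives were DESeq2 1.42.0, RLE scaling, no filter, all 25 libraries in a single fit, the study's fold and p limits, a block, lanes, scaling by total counts and leaving out each library. The study's limits were a log2 change beyond 1.5 either way with p under 0.01 between cultures, and 1 with 0.05 elsewhere. They were applied here to p without adjustment. The study's text does not say whether its p was adjusted, and a supplementary list of its culture genes gives adjusted p. Dixon's ratio, with its 95% critical value, was used to look for single libraries far from the other 3 of a group.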

Additional observations from a re-analysis of the deposited data

Results flagged for a closer look

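Of 44 groups of 4 libraries examined by Dixon's ratio, 40 for single members and 4 for summed leukocyte markers, 2 exceeded the 95% critical value, and chance alone passes about 1 in 20 groups. Psmb8 in peritoneal tumour cells had its highest library, mouse 1, far from the others (ratio 0.961, 2.34 CPM against 0.134 to 0.222 CPM in the other 3 mice). The summed leukocyte markers stood apart in the same library (ratio 0.962, 292.4 CPM in mouse 1).

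The liver to peritoneum difference differed between tumour cells and stroma for Tapbp (interaction -0.75 on the log2 scale, edgeR adjusted p = 0.0076, lower in the liver in all 4 tumours) and for Tap1 (interaction -2.11, adjusted p = 0.022, lower in the liver in all 4 tumours and higher in the liver in all 4 stromal pairs). Without peritoneal tumour mouse 1 the terms were -0.65 and -1.32.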

How the results depend on the processing

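Each member was lower in tumour cells than in stroma under all alternatives at both sites. The other counts of called members moved. They include members that passed the filter on low counts through a single group. With the study's fold and p limits, applied to p without adjustment, 0 members were higher in RasLOW, RasHIGH and liver stroma. Against RasHIGH, 1 was higher in liver tumour cells and 1 in peritoneal tumour cells. DESeq2 called 2 members higher in RasLOW and 2 lower in liver than in peritoneal tumour cells. With all 25 libraries in a single fit, 2 were higher in RasLOW, 4 lower in RasHIGH, 0 lower in liver than in peritoneal tumour cells, 0 higher in liver stroma, 0 lower in liver tumour cells and 6 higher in peritoneal tumour cells against RasHIGH, and 1 interaction was negative. Within lane 4, 0 were higher and 0 lower in RasLOW, and 0 higher and 1 lower in RasHIGH. With lane as a term, 0 were lower in liver than in peritoneal tumour cells. The cause was not tested.

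With the replicate number as a block, although the numbers did not pair the cultures, 0 were higher and 1 lower in RasLOW, and with the mouse as a block 0 were lower in liver than in peritoneal tumour cells. The block changed no other count by over 1.5 times.

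Leaving out each library gave 0 to 2 higher and 0 to 4 lower in RasLOW, 1 to 3 lower in RasHIGH, 0 to 1 lower in liver than in peritoneal tumour cells, 1 to 5 higher and 0 to 1 lower in liver tumour cells and 0 to 3 higher in peritoneal tumour cells against RasHIGH, and 1 to 4 negative interactions.

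Of the alternatives for single members 1089 kept direction and call, 78 lost and 27 gained a call, and 45 changed sign. In RasHIGH against BMEL WT, B2m was 0.012 with DESeq2, 0.011 with RLE, 0.013 without a filter, 0.028 with all libraries and 0.117 within lane 4 (-0.154 to 0.1 without single libraries), Erap1 -0.005 with the block and -0.171 within lane 4 (-0.176 to 0.164), and Tapbp -0.236 to 0.379. In RasHIGH against RasLOW, Tap2 was -0.097 with the block (-0.948 to 0.662) and H2-K1 -0.108 to 0.012, and Tapbp in RasLOW against BMEL WT was -0.706 to 0.106. In liver against peritoneal tumour cells, B2m was -0.001 with DESeq2, -0.002 with RLE and -0.056 with lane (-0.098 to 0.073), and Psmb8 0.151 with the mouse block (-1.151 to 1.171). In the stroma Tapbp was 0.041 with all libraries and 0.004 with the block (-0.054 to 0.05). Against RasHIGH, H2-D1 in liver tumour cells was -0.193 to 0.055 and Tap1 in peritoneal tumour cells -0.127 to 0.888. Interactions ran from -0.229 to 0.27 for H2-K1, -1.807 to 0.613 for Psmb8 and -1.548 to 0.468 for Psmb9.

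Scaling by total counts moved 65 of 70 group levels by under 1 SD. With a pseudocount of 0.1, 0 of the 5 nearest genes over 25 libraries and 3 of the 5 over the cultures were kept. Depth limits Psmb8, Psmb9 and Nlrc5 in cultures and tumour cells, where libraries held 0 to 75 counts.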
